A study of Mus musculus with 18 samples.

Results

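The genes examined here were 10 regulators of the epithelial-mesenchymal transition (EMT), *Zeb1*, *Zeb2*, *Snai1*, *Snai2*, *Twist1*, *Twist2*, *Ovol1*, *Grhl2*, *Esrp1* and *Esrp2*. They were taken by symbol from the 24333 gene symbols shared by the RNA-seq count tables of 168FARN and 67NR, lines of cells from mouse mammary tumours, and all 10 were found in both tables. Both parental lines are non-metastatic, and per the study their *Kmt2c* and *Kmt2d* KO derivatives formed metastases in mice. Each line was measured as WT, *Kmt2c* KO and *Kmt2d* KO cells, with 3 libraries for each of the 6 combinations of line and genotype and 18 libraries in all. *Kmt2c* and *Kmt2d* encode histone methyltransferases that mark enhancers. Knockout cells had been transfected with a pool of sgRNAs against exon 1 of the gene and with *Cas9*, then sorted, so that they were pools and not clones and could hold unedited cells. Per the study, some reads of the targeted region were still unmutated in every pool but the 168FARN *Kmt2d* KO. Their share was largest in 67NR *Kmt2c* KO cells, so the extent of editing differed between the groups compared here. The 168FARN WT libraries carry the name of a control sgRNA and the 67NR WT libraries do not. No other treatment was given, and all cells were grown in culture.

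EMT is the switch by which epithelial cells lose their junctions and polarity and take on a motile, mesenchymal form. The ZEB, SNAI and TWIST families are DNA-binding factors that drive it, and ZEB and SNAI proteins bind E-box sequences in the promoters of epithelial genes such as that of E-cadherin and repress them. OVOL1 and GRHL2 hold cells in the epithelial state and oppose *Zeb1*, while ESRP1 and ESRP2 are RNA-binding proteins that set the epithelial pattern of alternative splicing. Gene counts of the kind used here show how much RNA each gene made and not which isoforms it spliced.

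In mm9, *Zeb2* lies on the minus strand at chr2:44839154-44972915. *Snai1* lies at chr2:167363695-167368314, *Snai2* at chr16:14705945-14709488, *Twist1* at chr12:34642536-34644682 and *Twist2* at chr1:93698038-93744605, all on the plus strand, as does *Grhl2* at chr15:37162791-37293324. *Ovol1* (chr19:5549137-5560575), *Esrp1* (chr4:11259080-11313930) and *Esrp2* (chr8:108654219-108660874) are on the minus strand. The counts cover the exons of each gene as a whole.

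Promoter sequences from RefSeq (build GRCm38.p6) were matched for 4 of the 10 genes, *Zeb2*, *Snai1*, *Twist1* and *Twist2*, and those of *Zeb1*, *Snai2*, *Ovol1*, *Grhl2*, *Esrp1* and *Esrp2* were not matched. They are shown because 3 of the 4 genes moved together in the 67NR knockouts and because E-boxes are the sites that these factors themselves read. Each run is the 250 bases before an annotated start, on the strand of the gene. Capitals mark the E-box core CAGGTG or its reverse complement CACCTG, and TATAA or its reverse complement TTATA. For *Zeb2* the run before the first of 4 annotated starts is given, and the counts do not tell which start was used. The runs cover chr2:45117443-45117692 on the minus strand for *Zeb2* and, on the plus strand, chr2:167537945-167538194 for *Snai1*, chr12:33957421-33957670 for *Twist1* and chr1:91801211-91801460 for *Twist2*.
Snai1: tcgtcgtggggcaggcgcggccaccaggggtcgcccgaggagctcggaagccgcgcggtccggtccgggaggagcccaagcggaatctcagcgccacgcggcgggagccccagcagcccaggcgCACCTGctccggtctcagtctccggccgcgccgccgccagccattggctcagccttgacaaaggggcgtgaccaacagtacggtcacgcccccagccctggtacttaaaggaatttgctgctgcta
Twist1: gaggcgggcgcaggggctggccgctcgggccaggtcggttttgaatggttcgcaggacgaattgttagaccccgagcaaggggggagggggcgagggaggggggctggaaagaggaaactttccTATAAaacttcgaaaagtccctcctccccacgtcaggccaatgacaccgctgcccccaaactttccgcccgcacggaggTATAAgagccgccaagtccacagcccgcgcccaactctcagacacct
Twist2: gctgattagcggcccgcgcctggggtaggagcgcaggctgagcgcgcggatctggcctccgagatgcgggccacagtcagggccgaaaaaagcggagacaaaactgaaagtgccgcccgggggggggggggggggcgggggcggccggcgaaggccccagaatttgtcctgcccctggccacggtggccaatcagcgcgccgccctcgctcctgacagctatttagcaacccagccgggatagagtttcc
Zeb2: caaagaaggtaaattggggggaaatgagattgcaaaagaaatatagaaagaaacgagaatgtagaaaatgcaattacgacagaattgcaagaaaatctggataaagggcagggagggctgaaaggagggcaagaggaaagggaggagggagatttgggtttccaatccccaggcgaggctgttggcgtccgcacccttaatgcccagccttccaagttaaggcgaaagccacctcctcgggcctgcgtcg

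The *Snai1* run held 1 CACCTG, which began 126 bases before the start, and no other CANNTG. None of the other 3 runs held CANNTG on either strand, the wider E-box form that includes the former. Over 32851 mouse promoter runs of the same length, 17.2% held CAGGTG or CACCTG and 66.2% held CANNTG. *Twist1* held TATAA at 126 and 47 bases before its start, and the *Zeb2*, *Snai1* and *Twist2* runs shown held neither TATAA nor TTATA, which 22.8% of the runs held. The runs of *Snai1* and *Twist2* were 70.0% and 68.8% G or C, against 62.4% for *Twist1* and 49.6% for *Zeb2*. A match is a match of letters only, and no match says only that these letters are not in this window.

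Between 14359760 and 43427382 reads were counted on genes per 168FARN library and between 40951775 and 79251530 per 67NR library. Levels are given in CPM, counts scaled to library size with edgeR's TMM factors over the 18 libraries. In 1 library, 67NR *Kmt2d* KO replicate 3, the ribosomal RNA gene *Rn45s* took 28.7% of the counts, against 0.458% to 4.96% in the other 17. Libraries numbered 3 stood apart from those numbered 1 and 2 in every genotype of both lines, which bears on several of the genes below. *Kmt2c* RNA in 67NR was at 59.5 ± 4.67 CPM (SD, n = 3) before and 86.8 ± 4.81 CPM after its knockout, and in 168FARN at 90.3 ± 39.0 and 79.4 ± 27.4 CPM. *Kmt2d* RNA was at 99.4 ± 14.6 and 109 ± 27.8 CPM in 67NR and at 145 ± 33.4 and 234 ± 84.5 CPM in 168FARN. Short edits in exon 1 need not lower the RNA, so these levels do not check the labels.

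Which of the regulators each line carried before any knockout was asked by setting the WT libraries of the lines side by side. The lines were nearly opposite. WT 168FARN cells had more *Zeb1*, *Zeb2*, *Snai2*, *Twist1* and *Twist2*, and WT 67NR cells had more *Ovol1*, *Grhl2*, *Esrp1* and *Esrp2*. A gene was called where the adjusted p was under 0.1 and the absolute log2 fold change over 0.6, and 9 of the 10 were called, 4 higher and 5 lower in 67NR. Of all 13882 genes tested, 39.2% were called, 22.3% higher and 16.9% lower. The counts of each line came in a table of its own, and any difference in handling between the tables cannot be told apart from the lines in this comparison.

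*Zeb1*, a zinc-finger repressor of E-cadherin, was at 81.5, 81.8 and 53.4 CPM in the 3 WT libraries of 168FARN and at 5.40, 6.38 and 3.72 CPM in those of 67NR. *Twist2*, a basic helix-loop-helix factor of mesenchymal cells, was at 18.8, 17.7 and 14.3 CPM against 0.307, 0.411 and 0.230 CPM. Neither gene overlapped between the lines. With the quasi-likelihood test of edgeR and Benjamini-Hochberg adjustment, the log2 fold change of 67NR over 168FARN was -3.80 ± 0.25 (SE, adjusted p = 1.7e-08) for *Zeb1* and -5.72 ± 0.33 (adjusted p = 4.4e-09) for *Twist2*. It was -1.42 ± 0.27 for *Zeb2*, -1.92 ± 0.38 for *Snai2* and -2.03 ± 0.43 for *Twist1*. *Snai1* had a log2 fold change of 0.38 ± 0.23 (edgeR, adjusted p = 0.22), and its WT libraries lay between 7.94 and 8.38 CPM in 168FARN and between 10.2 and 10.9 CPM in 67NR.

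*Grhl2*, a grainyhead factor of epithelial cells, was at 0.958, 1.01 and 2.01 CPM in WT 168FARN and at 63.4, 63.4 and 70.3 CPM in WT 67NR (log2 fold change 5.62 ± 0.28, edgeR, adjusted p = 1.6e-09). The zinc-finger factor *Ovol1* had 6 counts over the 3 WT libraries of 168FARN and 940 over those of 67NR, which at equal depth is 83.2-fold with a 95% counting interval of 38.1 to 227. That interval covers counting error only. *Esrp1* and *Esrp2* had 0 counts in WT 168FARN and 33199 and 2456 counts in WT 67NR. Against a floor of 3 counts over the group, *Esrp1* was at least 5878-fold and *Esrp2* at least 435-fold higher in 67NR. Over all 9 libraries of 168FARN, *Esrp2* had 0 counts, which allows a level of up to 0.0710 to 0.215 CPM depending on the library, and *Esrp1* had 2 counts, both in *Kmt2c* KO replicate 2.

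**Figure D1:**
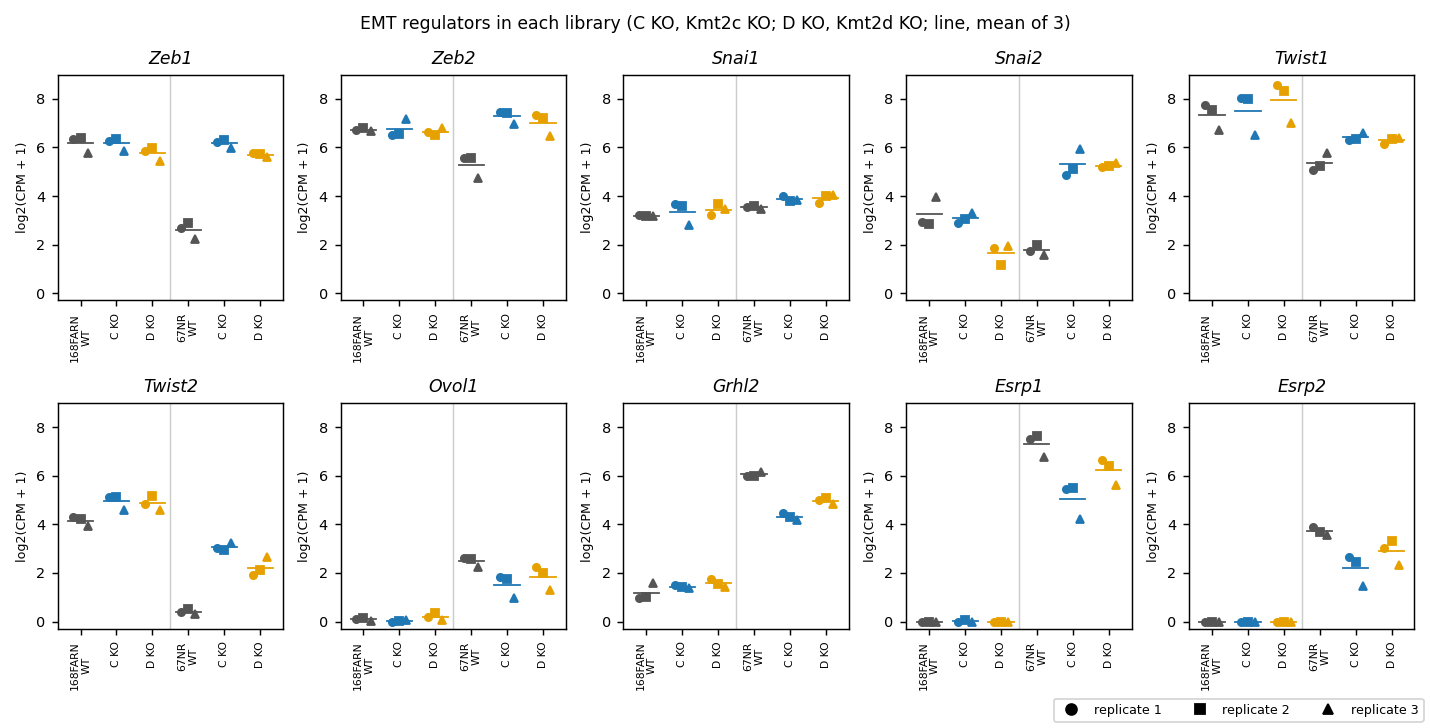
Each panel plots 1 gene, with log2(CPM + 1) of every library on the vertical axis and the 6 groups along the horizontal axis. Symbols are replicates, lines are means of 3 and colours are genotypes. In 67NR, both knockouts lie above WT for *Zeb1*, *Zeb2*, *Snai2*, *Twist1* and *Twist2* and below it for *Grhl2* and *Esrp1*, while 168FARN shows *Esrp1* and *Esrp2* at or near 0 throughout.

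Levels of different genes were compared only per length, as CPM per kilobase of exon. In WT 67NR cells, *Esrp1* (25.5 ± 7.35, SD, n = 3) and *Twist1* (25.5 ± 7.13) had the highest levels and did not differ beyond their spread. *Grhl2* followed at 11.9 ± 0.73 and *Snai1* at 6.51 ± 0.24. *Esrp2* (2.81 ± 0.37) and *Zeb2* (2.56 ± 0.76) did not differ beyond their spread, and neither did *Ovol1* (1.60 ± 0.27) and *Snai2* (1.19 ± 0.24). The spreads of *Zeb2* and *Ovol1* met as well. *Zeb1* (0.532 ± 0.138) and *Twist2* (0.238 ± 0.0686) were lowest. In WT 168FARN cells the order began with *Twist1* at 104 ± 35.8 and *Twist2* at 12.8 ± 1.78 CPM per kilobase. *Zeb1* (7.44 ± 1.68), *Zeb2* (6.85 ± 0.25), *Snai1* (5.00 ± 0.15) and *Snai2* (4.49 ± 2.30) came next. *Zeb1* did not differ beyond its spread from *Zeb2*, nor *Snai2* from *Zeb1*, *Zeb2* or *Snai1*. *Grhl2* was at 0.241 ± 0.108 and *Ovol1* at 0.0211 ± 0.0119. With the longest transcript as length, *Esrp2* and *Zeb2* traded places in WT 67NR and no other gene of either WT group moved. So *Twist1* was high in both lines, and *Snai2*, *Zeb1* and *Twist2* were among the lowest members of the set in WT 67NR.

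What loss of either gene did to the regulators was asked within each line. In 67NR the 6 genes that promote EMT and the 4 epithelial genes moved in opposite directions in *Kmt2c* KO cells: 5 of the 6 rose, none fell, and all 4 epithelial genes fell. Of 13665 genes tested, 35.3% were called in that comparison, 17.9% higher and 17.4% lower. In *Kmt2d* KO cells the same 5 promoting genes, *Zeb1*, *Zeb2*, *Snai2*, *Twist1* and *Twist2*, were called higher. Of the 4 epithelial genes 1, *Grhl2*, was called lower. Among all genes 25.5% were called, 13.9% higher and 11.6% lower. Both comparisons use the same 3 WT libraries, so they are not independent of each other. The p-values measure the spread between these libraries, and per the study replicates were collections of the same line taken 1 passage apart. In cell pools, fewer cells of a type and less RNA per cell cannot be told apart.

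In the WT libraries of 67NR, *Zeb1* had the 5.40, 6.38 and 3.72 CPM given above. It reached 73.2, 77.1 and 62.5 CPM after loss of *Kmt2c* and 53.5, 52.1 and 47.5 CPM after loss of *Kmt2d*. No WT library came near any knockout library. The log2 fold change was 3.86 ± 0.22 (edgeR, adjusted p = 4.8e-06) in *Kmt2c* KO and 3.38 ± 0.22 (edgeR, adjusted p = 1.6e-05) in *Kmt2d* KO cells. Set beside WT 168FARN cells, whose libraries ran from 53.4 to 81.8 CPM, the *Kmt2c* KO libraries of 67NR fell in the same range.

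Its relative *Zeb2* started from 46.0, 46.1 and 25.8 CPM and stood at 174, 171 and 124 CPM without *Kmt2c* and at 161, 145 and 88.7 CPM without *Kmt2d*. Replicate 3 was the lowest of each genotype, and the knockouts still did not overlap WT. *Zeb2* rose by 2.08 ± 0.30 (edgeR, adjusted p = 8.0e-04) and 1.82 ± 0.30 (edgeR, adjusted p = 0.0026) on the log2 scale. All 6 knockout libraries but *Kmt2d* KO replicate 3 were above the 101 to 109 CPM of WT 168FARN.

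*Snai2*, which encodes the zinc-finger repressor Slug, had 2.30, 2.94 and 1.998 CPM in the WT libraries. Those of the *Kmt2c* KO had 28.4, 33.3 and 61.0 CPM and those of the *Kmt2d* KO 35.6, 36.1 and 39.9 CPM. *Kmt2c* KO replicate 3 was well above the other knockout libraries. The log2 fold changes were 4.16 ± 0.32 (edgeR, adjusted p = 1.8e-05) and 4.02 ± 0.31 (edgeR, adjusted p = 3.7e-05). Per length, *Snai2* went from 1.19 ± 0.24 CPM per kilobase, the third lowest of the set in WT, to 20.1 ± 8.64 and 18.3 ± 1.14, where only *Twist1* was higher, or, with the longest transcript as length, *Twist1* and in *Kmt2d* KO cells *Esrp1*. WT 168FARN cells had 4.49 ± 2.30.

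*Snai1*, which encodes Snail, moved least. Its WT libraries held 10.5, 10.9 and 10.2 CPM, against 15.1, 12.7 and 13.1 CPM for *Kmt2c* KO and 12.1, 15.2 and 15.6 CPM for *Kmt2d* KO. All 6 knockout libraries lay above the 3 of WT. The log2 fold changes of 0.45 ± 0.17 (edgeR, adjusted p = 0.067) and 0.51 ± 0.17 (edgeR, adjusted p = 0.058) passed the p threshold and not that on size, so *Snai1* was not called.

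*Twist1*, a basic helix-loop-helix factor, went from 32.5, 36.9 and 54.2 CPM to 78.7, 81.2 and 95.8 CPM on loss of *Kmt2c* and to 68.6, 80.7 and 83.6 CPM on loss of *Kmt2d*. Here replicate 3 was the highest of each genotype, and the groups of knockout and WT libraries did not overlap. *Twist1* rose by 1.13 ± 0.21 (edgeR, adjusted p = 0.0027) and 0.99 ± 0.21 (edgeR, adjusted p = 0.0082) on the log2 scale, and per length it led the set in both knockouts at 52.8 ± 5.73 and 48.0 ± 4.93 CPM per kilobase.

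*Twist2* had 26, 28 and 10 counts in the WT libraries, or 0.307, 0.411 and 0.230 CPM. The *Kmt2c* KO raised it to 7.24, 6.62 and 8.29 CPM, and the *Kmt2d* KO to 2.75, 3.29 and 5.25 CPM. Every *Kmt2c* KO library was above every *Kmt2d* KO library. The log2 fold change was 4.60 ± 0.36 (edgeR, adjusted p = 2.0e-05) in *Kmt2c* KO cells, the largest of the set, and 3.62 ± 0.35 (edgeR, adjusted p = 1.1e-04) in *Kmt2d* KO cells. Knockout libraries of 67NR stayed below the 14.3 to 18.8 CPM of WT 168FARN.

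**Figure D2:**
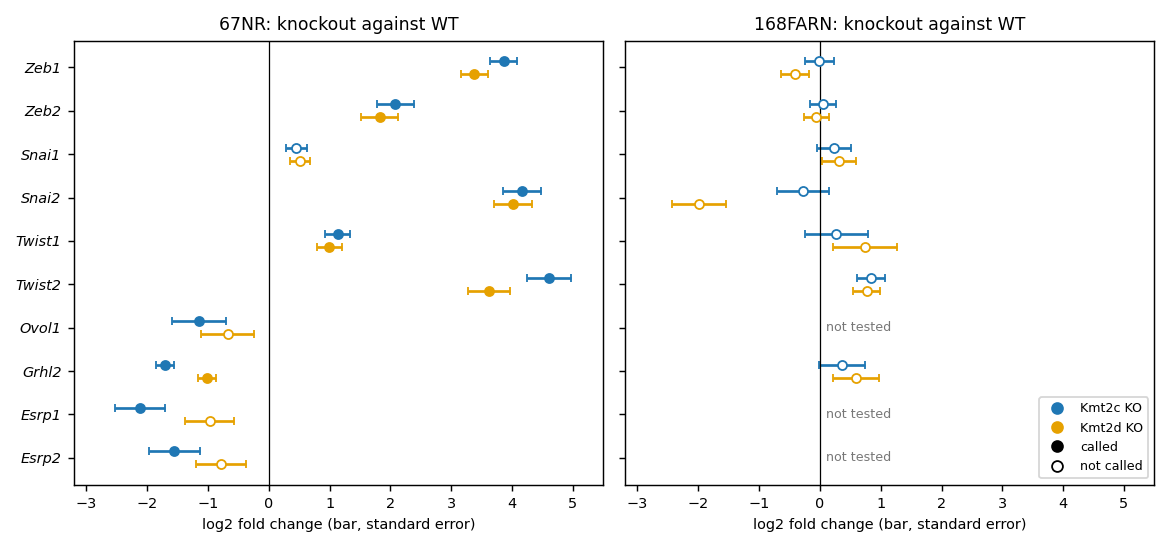
Log2 fold changes of knockout against WT, with bars of 1 standard error, are plotted for each gene in 67NR (left) and 168FARN (right), and filled points were called. In 67NR the fold changes run from -2.12 for *Esrp1* in *Kmt2c* KO cells to 4.60 for *Twist2* in *Kmt2c* KO cells, and no point is filled in 168FARN.

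*Grhl2* was the epithelial regulator called lower in both knockouts of 67NR by edgeR without a term for the replicate number. From 63.4, 63.4 and 70.3 CPM it went to 21.2, 18.7 and 17.0 CPM without *Kmt2c* and to 31.1, 32.9 and 27.9 CPM without *Kmt2d*, with no overlap between any of the groups. *Grhl2* fell by 1.71 ± 0.15 (edgeR, adjusted p = 3.8e-05) and by 1.02 ± 0.15 (edgeR, adjusted p = 0.0012) on the log2 scale, to 28.9% and 46.7% of the WT mean.

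*Esrp1* stood at 179, 196 and 108 CPM in the WT libraries. The *Kmt2c* KO libraries held 43.0, 43.8 and 17.9 CPM and the *Kmt2d* KO libraries 100.4, 83.9 and 48.1 CPM. Replicate 3 was the lowest of each genotype. *Esrp1* fell by 2.12 ± 0.41 (edgeR, adjusted p = 0.0037) in *Kmt2c* KO cells. In *Kmt2d* KO cells its log2 fold change was -0.98 ± 0.40 (edgeR, adjusted p = 0.11), although no *Kmt2d* KO library reached the lowest of WT.

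Its paralog *Esrp2* dropped from 13.98, 11.7 and 10.9 CPM to 5.38, 4.52 and 1.78 CPM without *Kmt2c*, and its libraries without *Kmt2d* held 7.05, 8.83 and 4.09 CPM. It fell by 1.56 ± 0.42 (edgeR, adjusted p = 0.019) in *Kmt2c* KO cells and had a log2 fold change of -0.79 ± 0.41 (edgeR, adjusted p = 0.21) in *Kmt2d* KO cells. The groups of knockout and WT libraries did not overlap.

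*Ovol1* had 5.18, 5.00 and 3.72 CPM in the WT libraries, against 2.54, 2.34 and 0.986 CPM for *Kmt2c* KO. For *Kmt2d* KO it had 3.75, 3.0 and 1.46 CPM, where the highest library reached the lowest of WT. Its fall by 1.15 ± 0.44 in *Kmt2c* KO cells was the least secure of the calls (edgeR, adjusted p = 0.074). It was lost when WT replicate 1 or 2 or *Kmt2c* KO replicate 2 or 3 was left out, with adjusted p-values from edgeR of 0.16, 0.15, 0.12 and 0.17. In *Kmt2d* KO cells the log2 fold change was -0.68 ± 0.44 (edgeR, adjusted p = 0.32).

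Libraries numbered 3 deviated together, while numbers 1 and 2 were not told apart. Each knockout library was also set against the WT library of its own number. DESeq2 called 7 of the 10 in *Kmt2d* KO cells of 67NR, *Esrp1* being added with an adjusted p of 0.058, against 28.2% of all genes. With a term for the replicate number, called the block here, 9 genes were called in *Kmt2d* KO cells in place of 6, against 32.7% of all genes. The genes added were *Esrp1* (log2 fold change -1.001 ± 0.138, edgeR, adjusted p = 1.9e-04), *Esrp2* (-0.87 ± 0.25, edgeR, adjusted p = 0.018) and *Ovol1* (-0.77 ± 0.26, edgeR, adjusted p = 0.035). Within a number, *Esrp1* was at 0.429 to 0.560 of WT in the 3 *Kmt2d* KO libraries and at 0.165 to 0.240 of WT in the 3 *Kmt2c* KO libraries. All 4 epithelial genes were below WT within all 3 numbers of both knockouts, and all 6 promoting genes were above it. The share of all genes with such a constant direction was not computed, and both knockouts were set against the same 3 WT libraries.

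**Figure D3:**
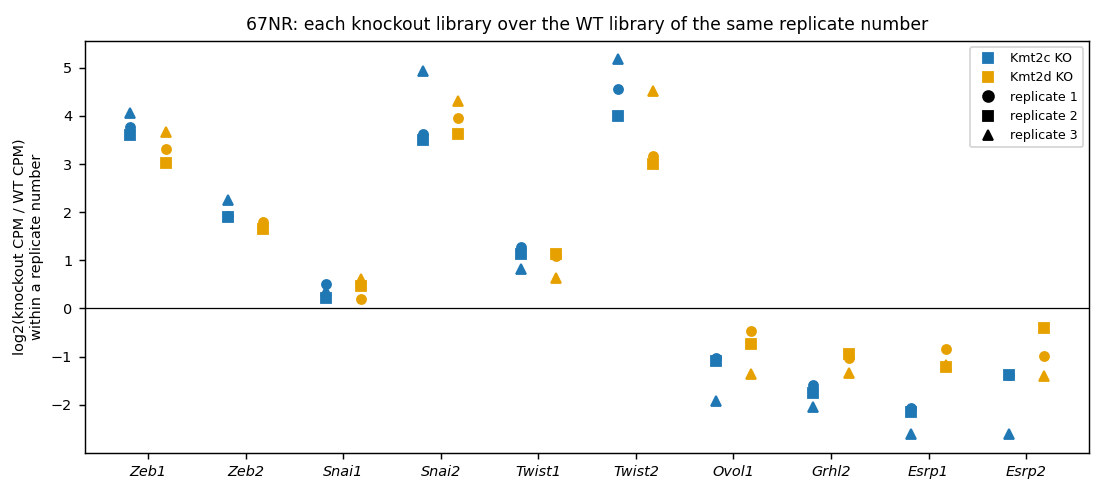
For each gene in 67NR, the log2 ratio of the CPM of each knockout library to that of the WT library with the same replicate number is plotted on the vertical axis, with a symbol for each number. All points of the 6 promoting genes lie above 0 and all points of *Ovol1*, *Grhl2*, *Esrp1* and *Esrp2* below 0. The share of all genes with such a constant direction was not computed.

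The knockouts of 67NR were then compared with each other. Of the 10 genes only *Grhl2* was called, lower without *Kmt2c* than without *Kmt2d* by a log2 fold change of -0.69 ± 0.15 (edgeR, adjusted p = 0.086), where 1.41% of all genes were called, 1.28% lower and the rest higher. That call was lost in 5 of the 6 fits that left out a library, all but the one without *Kmt2d* KO replicate 3, with adjusted p-values from edgeR of 0.15 to 0.34. DESeq2 called *Grhl2* and *Twist2*, against 4.37% of all genes, and with the replicate block 4 genes were called, against 7.29%. Under the block *Grhl2* was joined by *Esrp1* (-1.18 ± 0.14, edgeR, adjusted p = 6.4e-04) and *Esrp2* (-0.81 ± 0.26, edgeR, adjusted p = 0.093), both lower in *Kmt2c* KO cells, and by *Twist2* (1.01 ± 0.27, edgeR, adjusted p = 0.049), which was higher there. For *Zeb1* the log2 fold change was 0.48 ± 0.20 (edgeR, adjusted p = 0.42) without the block. For *Zeb2*, *Snai1*, *Snai2* and *Twist1* it lay between -0.06 and 0.25.

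In 168FARN, 7 of the 10 genes had enough counts to be tested, the 6 promoting genes and *Grhl2*, and 0 of the 7 were called in *Kmt2c* KO cells, in *Kmt2d* KO cells or between the knockouts. Of 12253 genes tested, 0.359%, 0.286% and 0.253% were called in these 3 comparisons. At an unadjusted p under 0.05 there were 1, 2 and 1 of the 7, and the share of all genes at that threshold is not given here. *Ovol1* had 0 to 4 counts per library. *Zeb1* and *Snai2*, which rose in both knockouts of 67NR, had log2 fold changes of -0.01 ± 0.24 and -0.28 ± 0.43 in *Kmt2c* KO cells of 168FARN (edgeR, adjusted p = 1.00 for both).

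*Twist2* had 18.8, 17.7 and 14.3 CPM in WT 168FARN, against 33.6, 33.6 and 23.5 CPM after loss of *Kmt2c* and 27.5, 34.99 and 23.2 CPM after loss of *Kmt2d*. All 6 knockout libraries were above the 3 of WT. The log2 fold changes of 0.84 ± 0.23 (edgeR, adjusted p = 0.39) and 0.77 ± 0.23 (edgeR, adjusted p = 0.50) were not called. They were called with the replicate block, at 0.82 ± 0.12 (edgeR, adjusted p = 0.0013) and 0.76 ± 0.12 (edgeR, adjusted p = 0.0028), and by DESeq2, with adjusted p-values of 0.033 and 0.079.

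*Snai2* was lower in 1 knockout of 168FARN. The WT libraries of 168FARN held 6.64, 6.20 and 14.5 CPM and those without *Kmt2c* 6.46, 7.37 and 8.75 CPM, which overlapped. Those without *Kmt2d* held 2.67, 1.22 and 2.86 CPM, below all others. Its log2 fold change in *Kmt2d* KO cells was -1.99 ± 0.45 (edgeR, adjusted p = 0.21) without the block and -1.93 ± 0.26 (edgeR, adjusted p = 9.9e-04) with it, and DESeq2 gave an adjusted p of 0.0015. Between the knockouts of 168FARN it was 1.71 ± 0.44 higher in *Kmt2c* KO cells (edgeR, adjusted p = 0.36), and 1.74 ± 0.27 with the block (edgeR, adjusted p = 0.0023).

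*Twist1* had 214, 187 and 103 CPM in WT 168FARN, 264, 253 and 89.7 CPM without *Kmt2c* and 379, 320 and 128 CPM without *Kmt2d*, so that replicate 3 was the lowest of each genotype and the groups overlapped. Its log2 fold change in *Kmt2d* KO cells was 0.74 ± 0.53 (edgeR, adjusted p = 1.00), and 0.65 ± 0.13 with the block (edgeR, adjusted p = 0.011). In all, the block gave 1, 3 and 1 called genes in the 3 comparisons of 168FARN, against 7.23%, 5.90% and 5.33% of all genes, and DESeq2 gave 1, 2 and 1, against 2.35%, 2.02% and 1.92%. *Zeb1* in *Kmt2d* KO cells was at 57.2, 61.5 and 42.7 CPM, which overlapped WT, with a log2 fold change of -0.41 ± 0.24 (edgeR, adjusted p = 1.00). *Zeb2*, *Snai1* and *Grhl2* overlapped WT in both knockouts of 168FARN.

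Whether the effect of a knockout differed between the lines was tested as an interaction over all 18 libraries. Only the WT libraries of 168FARN carry the name of a control sgRNA, and the extent of editing differed between the pools. These differences cannot be told apart from the lines in this test. The log2 fold change in 67NR exceeded that in 168FARN for *Zeb1*, *Zeb2*, *Snai2* and *Twist2*, and lay below it for *Grhl2*, in both knockouts. In 168FARN itself none of these 5 was called by edgeR without the replicate block, and *Grhl2* had positive values (0.37 and 0.59). With the block, and by DESeq2, *Twist2* was called higher in both knockouts of 168FARN and *Snai2* lower in its *Kmt2d* KO cells. In each test 5 of the 10 genes were called, 4 of them positive and 1 negative. Of all 13882 genes, 16.0% were called for *Kmt2c* (8.49% positive, 7.55% negative) and 10.6% for *Kmt2d* (6.68% and 3.92%). For *Zeb1* the difference of log2 fold changes was 3.79 ± 0.33 (edgeR, adjusted p = 1.6e-06) for *Kmt2c* and 3.73 ± 0.33 (edgeR, adjusted p = 2.8e-06) for *Kmt2d*. The difference for *Snai2* was 5.94 ± 0.56 (edgeR, adjusted p = 5.1e-06) for *Kmt2d*, the largest. *Twist1* had 0.78 ± 0.58 (edgeR, adjusted p = 0.49) and 0.20 ± 0.58 (edgeR, adjusted p = 0.94), and *Snai1* 0.14 ± 0.33 in both tests. With the replicate block 7 of the 10 were called for *Kmt2c* and 6 for *Kmt2d*, against 34.6% and 28.4% of all genes. The genes added were *Twist1* (0.90 ± 0.19, edgeR, adjusted p = 0.0013) and *Esrp1* for *Kmt2c*, and *Ovol1* for *Kmt2d*. DESeq2 added *Esrp1* for *Kmt2c* and so gave 6, against 20.5%. *Ovol1*, *Esrp1* and *Esrp2* had 0 to 4 counts per library in 168FARN and so no effect there to compare. The calls of *Esrp1* and *Ovol1* are in these counts but were set aside as differences between the lines.

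The lists of related genes show where the 10 stood within the wider programme in 67NR. Of 23 epithelial genes that such factors repress or maintain, 22 fell without *Kmt2c* and 19 without *Kmt2d*, and none rose. Of all genes tested, 17.4% and 11.6% were called lower in these comparisons. The median log2 fold changes of the 23 genes were -2.21 and -1.24, against -0.02 over all genes in each comparison. *Cdh1*, which encodes E-cadherin, went from 492 ± 30.3 CPM (SD, n = 3) to 66.6 ± 11.7 CPM without *Kmt2c* and to 181 ± 27.6 CPM without *Kmt2d*, and its direct comparison gave lower levels without *Kmt2c* than without *Kmt2d*, by -1.44 ± 0.18 on the log2 scale (edgeR, adjusted p = 0.013). The tight junction gene *Tjp3* fell by 3.12 ± 0.25 and 2.25 ± 0.24, and *Ap1m2*, an adaptor subunit of epithelial sorting, had a log2 fold change of -3.49 ± 0.37 in *Kmt2d* KO cells. In 168FARN only 4 of the 23 could be tested. In either knockout 0 were called, and at an unadjusted p under 0.05 there were 0 as well. With the replicate block 1 was called lower for *Kmt2c*, where 7.23% of all genes were called.

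Among 13 mesenchymal genes tested in 67NR, 8 rose and 1 fell in each knockout, with medians of 2.05 and 1.59. Of all genes, 17.9% were called higher and 17.4% lower without *Kmt2c*, and 13.9% and 11.6% without *Kmt2d*. With the replicate block 9 rose and 3 fell in *Kmt2c* KO and 9 rose and 2 fell in *Kmt2d* KO cells. The block called 5637 and 4475 of all 13665 genes in these comparisons. *Cdh2*, which encodes N-cadherin, rose by 4.22 ± 0.38 (edgeR, adjusted p = 4.6e-05) and 3.84 ± 0.37 (edgeR, adjusted p = 1.3e-04), and *Itga5*, a fibronectin receptor subunit, by 2.05 ± 0.19 and 1.54 ± 0.19. The gene that fell without the block was *Fn1*, the matrix protein fibronectin itself, by 1.97 ± 0.44 (edgeR, adjusted p = 0.0076) and 1.56 ± 0.43 (edgeR, adjusted p = 0.031). Its WT level ran from 1868 to 5799 CPM.

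Other factors known to induce EMT did not move as a block. Of 12 tested, 3 rose and 4 fell in each knockout of 67NR, and the medians were -0.55 and -0.35. The shares of all genes called higher and lower were 17.9% and 17.4% for *Kmt2c* KO and 13.9% and 11.6% for *Kmt2d* KO cells. *Prrx1*, a paired-related homeobox factor, rose from 20.1 ± 10.7 CPM to 586 ± 117 and 394 ± 95.1 CPM, by 4.95 ± 0.49 (edgeR, adjusted p = 8.0e-05) and 4.37 ± 0.48 (edgeR, adjusted p = 2.5e-04) on the log2 scale. *Hmga2*, a chromatin architectural protein, rose by 1.47 ± 0.26 and 1.27 ± 0.26. The forkhead factors *Foxc2* and *Foxq1* fell in *Kmt2c* KO cells with log2 fold changes of -2.55 ± 0.22 and -2.96 ± 0.47, and in *Kmt2d* KO cells *Foxc2* fell by 1.38 ± 0.21 and *Sox4*, an SRY-related factor, by 1.08 ± 0.25. *Foxc2* and *Foxq1* were at 0 to 2 counts per group in 168FARN, whereas *Prrx1* was at 238 ± 10.7 CPM there in WT.

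Other epithelial transcription factors fell with *Grhl2* and *Ovol1*. Of 11 tested in 67NR, 9 fell without *Kmt2c* and 6 without *Kmt2d*, with medians of -2.26 and -1.42. Among all genes, 17.4% and 11.6% were called lower. None was called higher, but *Klf4* lay just under the limit on size in *Kmt2c* KO cells (0.60 ± 0.20, edgeR, adjusted p = 0.048), and under 6 alternatives 1 gene of the list was called higher there. The ETS factors *Elf3* and *Ehf* fell by 2.43 ± 0.23 and 3.20 ± 0.41 in *Kmt2c* KO and by 1.49 ± 0.22 and 3.46 ± 0.41 in *Kmt2d* KO cells. Of 14 other splicing regulators, 1 rose and 4 fell in *Kmt2c* KO and 0 rose and 2 fell in *Kmt2d* KO cells, with medians of -0.12 and -0.19. The share called was about that of all genes in *Kmt2c* KO cells (35.3%) and below it in *Kmt2d* KO cells (25.5%). *Rbm47*, an RNA-binding protein of epithelial cells, fell in both, by 1.24 ± 0.13 (edgeR, adjusted p = 1.3e-04) and 0.80 ± 0.13 (edgeR, adjusted p = 0.0026). *Celf2* fell by 1.31 ± 0.27 in *Kmt2c* KO cells, where *Rbfox2*, whose product promotes mesenchymal splicing, rose by 0.60 ± 0.18 (edgeR, adjusted p = 0.028), close to the limit on size. *Hnrnpa1* fell by 0.68 ± 0.25 in *Kmt2d* KO cells (edgeR, adjusted p = 0.083).

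Of 9 genes whose transcripts ESRP proteins splice, 3 rose and 2 fell in *Kmt2c* KO and 2 rose and 0 fell in *Kmt2d* KO cells of 67NR, with medians of 0.36 and -0.26, where 35.3% and 25.5% of all genes were called, so that the share in *Kmt2d* KO cells was near the background. The receptor gene *Fgfr1* rose from 12.1 ± 2.82 CPM to 141 ± 14.4 and 102 ± 9.0 CPM, by 3.62 ± 0.21 (edgeR, adjusted p = 5.1e-06) and 3.16 ± 0.21 (edgeR, adjusted p = 1.6e-05) on the log2 scale. *Cd44*, a hyaluronan receptor, rose by 1.25 ± 0.14 and 1.12 ± 0.14. *Enah*, an actin regulator, fell by 1.12 ± 0.20 and *Fgfr3* by 1.61 ± 0.52 in *Kmt2c* KO cells. These are totals over all isoforms of a gene and say nothing of splicing. The 5 loci of the miR-200 family, which target *Zeb1* and *Zeb2*, had 0 counts in these libraries, which are made from polyadenylated RNA.

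**Figure D4:**
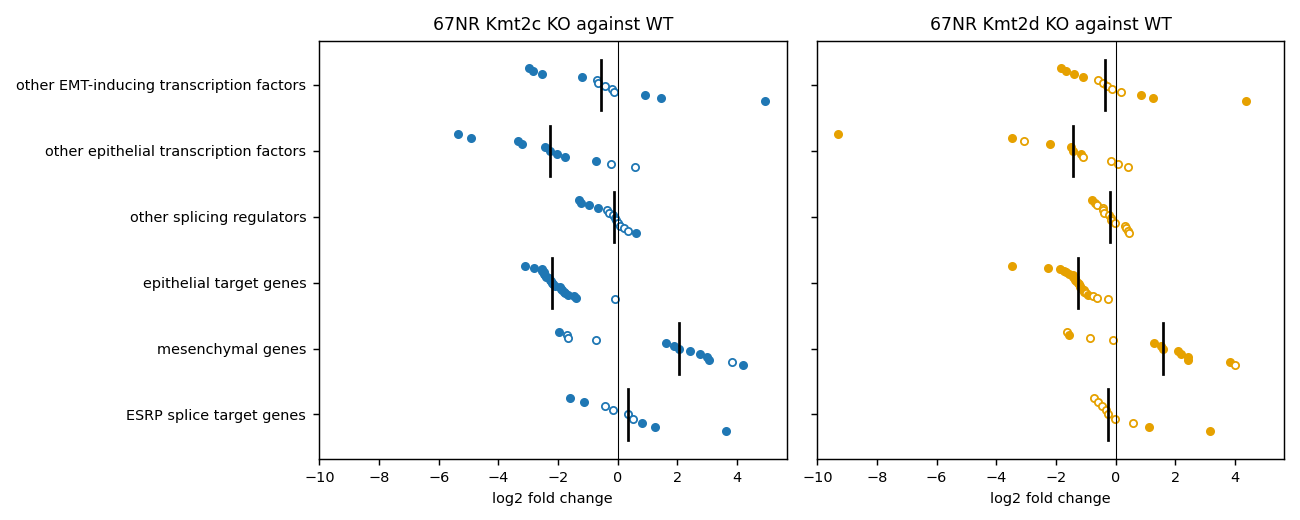
Points are log2 fold changes of single genes of 6 lists in 67NR *Kmt2c* KO (left) and *Kmt2d* KO (right) cells against WT, filled where called, and black bars are the medians of the genes tested. The median of the epithelial target genes lies at -2.21 and -1.24 and that of the mesenchymal genes at 2.05 and 1.59. The lowest point on the right is *Grhl3*, which had 0 counts in *Kmt2d* KO cells, so that its plotted size is not a measured fold.

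Markers fixed for the tissue and for other cell types were set beside these results. The mammary epithelial markers summed to 2000 to 3304 CPM in the WT libraries of 67NR, to 404 to 728 CPM without *Kmt2c* and to 692 to 1471 CPM without *Kmt2d*. In 168FARN they summed to 98.9 to 397 CPM, nearly all of it *Krt8*, and *Epcam* had 0 counts. Of 9 markers of leukocytes, macrophages, T cells, endothelial cells and fat cells, 4 could be tested in 67NR, and *Cdh5* and *Plin1* rose in both knockouts. Of all genes, 17.9% and 13.9% were called higher there. *Plin1* was near the floor, with 2 counts over the WT, 43 over the *Kmt2c* KO and 30 over the *Kmt2d* KO libraries of 67NR. The summed level of the 9 ran from 22.7 to 37.2 CPM in WT libraries, from 20.9 to 70.6 CPM without *Kmt2c* and from 26.8 to 80.3 CPM without *Kmt2d*, nearly all of it *Cd68*. Without *Cd68* the sums were 0.367 to 0.764, 1.64 to 2.23 and 0.904 to 1.86 CPM, and in 168FARN they were 0.703 to 1.25 CPM in WT libraries, 4.87 to 5.37 CPM without *Kmt2c* and 0.572 to 0.942 CPM without *Kmt2d*. The defining markers *Ptprc*, *Adgre1*, *Cd3e*, *Kdr* and *Adipoq* had 14, 3, 6, 4 and 12 counts over all 18 libraries. The endothelial marker *Pecam1* had 169 counts, with 0 in 1 of the 18 libraries and at most 0.500 CPM, and in 67NR its log2 fold changes of -0.46 ± 0.62 and -0.26 ± 0.62 were not called. In 168FARN, *Cdh5* was called higher without *Kmt2c* (log2 fold change 2.61 ± 0.39, edgeR, adjusted p = 0.054) and was not called without *Kmt2d*. The part of *Cdh5* and *Plin1* in the results above was not tested.

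Genes whose levels followed the regulators most closely were found by Pearson correlation of log2(CPM + 1) over the 9 libraries of 67NR. These values describe 9 points in 3 genotypes that share libraries and depth. Genes that differ between WT and knockouts correlate on that ground alone, so r in part restates the group differences. *Elovl7*, *Epb41l4b* and *Shroom2* were nearest to *Esrp1* (r = 0.998, 0.997 and 0.994), *Atxn7l1*, *Fermt1* and *Krba1* to *Grhl2* (0.996, 0.995 and 0.994) and *Pdxp*, *Zfp30* and *Chchd10* to *Esrp2* (0.991, 0.991 and 0.990). For *Ovol1* they were *Fgd4*, *Wnt7a* and *Lonrf1*. *Irak3* stood with *9430018G01Rik* and *Gm13544* beside *Zeb1* (r = 0.999 for all 3), *Fmnl2*, *Nup98* and *Txndc16* beside *Zeb2*, and *Iqcf6*, *Gm13154* and *Ppic* beside *Snai2*. *Sbno1*, *Nav3* and *Nipal1* were nearest to *Twist1*, *Adgra2*, *Ramp3* and *Cd93* to *Twist2*, and *E430018J23Rik*, *H2-DMb2* and *Klf13* to *Snai1*. Such neighbours are not rare: 1112 of 13664 genes had r over 0.9 with *Zeb1*, 944 with *Grhl2*, 676 with *Esrp1* and 35 with *Snai1*. Among the regulators themselves, r was -0.99 between *Twist2* and *Grhl2*, 0.97 between *Zeb1* and *Snai2* and 0.96 between *Esrp1* and *Esrp2*, but -0.46 between *Zeb2* and *Ovol1*.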

How the data were processed

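RNA-seq of 168FARN and 67NR cells was analysed, with 3 libraries for each of the genotypes WT, *Kmt2c* KO and *Kmt2d* KO, grouped by the deposited labels. Per the methods of the study, libraries were strand-specific and made from polyadenylated RNA, and reads were aligned to mm9 with STAR inside VIPER. The authors deposited raw counts per gene symbol, without normalization. The counting settings, strand included, are not given in the sources used here, so reads of overlapping genes may be shared. Symbols were matched ignoring case, 0 columns were unmapped, and tests on 18 libraries used the 24333 symbols of 24360 shared by both tables, since spreadsheet dates had replaced some names.

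Counts were tested with edgeR 4.0.16 in R 4.3.3 (TMM scaling, filterByExpr, robust quasi-likelihood test, Benjamini-Hochberg adjustment over all genes tested) on the 9 libraries of a line, or on all 18 for WT lines and interactions. Calls needed an absolute log2 fold change over 0.6 and an adjusted p under 0.1. Total counts per library set the precision, with a floor of 3 counts. Intervals cover counting error only. Errors of log2 fold changes are standard errors, and the scripts were tested on simulated data. CPM was divided by the exon length of GENCODE vM1 on mm9, and promoters came from RefSeq tables.

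The 10 genes and the lists were chosen with earlier results of these data known. All 10 are named, with the 3 genes most correlated with each in 67NR, and from other lists the 2 called genes with the smallest p in each direction. The gene *Grhl3* and the marker counts were added after their values were seen. Alternatives were DESeq2 1.42.0, its size factors, no filter, the replicate number as a block, a stricter p, the 6 compared libraries, each library left out and, chosen after seeing the data, fits without *Rn45s*. Deviations from group means of same-numbered libraries correlated at 0.65 to 0.90 (168FARN) and at 0.35 to 0.72 (67NR), 9 pairs each. Those of different numbers correlated at -0.82 to 0.73 and at -0.60 to 0.52, 18 pairs each. Numbers 1 and 2 correlated across numbers about as within them, so these values set only replicate 3 apart. The study treated each collection time as a batch, and on that ground the numbers were taken to pair the samples.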

Additional observations from a re-analysis of the deposited data

Results flagged for a closer look

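Of the 10 regulators, 5 had effects that differed between the lines by an interaction test over 18 libraries (quasi-likelihood test of edgeR, Benjamini-Hochberg adjustment), for the loss of *Kmt2c* and for the loss of *Kmt2d*. The control sgRNA named only for 168FARN WT libraries and the unequal extent of editing cannot be told apart from the lines here. Each value is the log2 fold change of knockout against WT in 67NR minus that in 168FARN. For *Zeb1* it was 3.79 (adjusted p = 1.6e-06) for *Kmt2c* and 3.73 (adjusted p = 2.8e-06) for *Kmt2d*, and for *Zeb2* it was 1.94 (adjusted p = 0.0027) and 1.82 (adjusted p = 0.0065). *Snai2* gave 4.36 (adjusted p = 4.9e-05) and 5.94 (adjusted p = 5.1e-06), and *Twist2* gave 3.68 (adjusted p = 1.4e-05) and 2.79 (adjusted p = 2.8e-04). The value was negative for *Grhl2*, at -2.15 (adjusted p = 4.8e-04) and -1.67 (adjusted p = 0.0059). In *Kmt2d* KO cells the fold changes in 67NR and 168FARN had opposite signs for *Snai2* (4.02 and -1.99), *Zeb1* (3.38 and -0.41), *Zeb2* (1.82 and -0.06) and *Grhl2* (-1.02 and 0.59). None of these was called in 168FARN by edgeR without the replicate block, and with it only *Snai2* was. The standard errors in 168FARN were 0.24 for *Zeb1*, 0.21 for *Zeb2* and 0.38 for *Grhl2*, so the signs of these genes there are not settled. Groups of 3 libraries are too small for a test of outlying samples, and none was made.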

How the results depend on the processing

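The number of regulators called moved by over 1.5 times in 4 of the 9 comparisons. Between the 67NR knockouts it was 1, but 0 at an adjusted p under 0.05 with no limit on size, 0 with no filter on low counts, 0 with only the 6 libraries compared, 2 with DESeq2 and 4 with the replicate block. In 168FARN it was 0 in each comparison. DESeq2 gave 1 for *Kmt2c* KO against WT, 2 for *Kmt2d* KO against WT and 1 between the knockouts, and the replicate block gave 1, 3 and 1. The block changed no call of the 10 genes other than those given beside the results. Leaving out each library in turn gave 8 to 9 called genes for *Kmt2c* KO and 6 to 7 for *Kmt2d* KO in 67NR, 0 to 1 between them, 0 to 0 in the 168FARN comparisons, 9 to 9 between the WT lines and 5 to 5 in both tests of interaction, where the block gave 7 and 6 and DESeq2 6 and 5 before *Esrp1* and *Ovol1* were set aside. The counts over all genes also moved, between the 67NR knockouts from 193 to 996 and in 168FARN from 44, 35 and 31 to 886, 723 and 653 with the block, 288, 248 and 235 with DESeq2 and 4, 0 and 2 with only the 6 libraries compared. Without 1 library they ran from 2 to 57, 0 to 18 and 2 to 35. The cause was not tested.

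Of 1153 values of single regulators under alternatives, 18 changed sign, all in fits without a library and none of them called. Over those fits, *Snai2* ran from -0.26 to 0.34 between the 67NR knockouts and from -0.49 to 0.25 in 168FARN *Kmt2c* KO cells. *Zeb1* ran from -0.17 to 0.13 and *Zeb2* from -0.20 to 0.17 in 168FARN *Kmt2c* KO cells, and *Zeb2* from -0.13 to 0.019 in *Kmt2d* KO cells. Between the 168FARN knockouts *Zeb2* ran from -0.14 to 0.23, *Snai1* from -0.25 to 0.17 and *Twist2* from -0.061 to 0.24. In the interactions, *Ovol1* ran from -0.61 to 0.68 and *Snai1* from -0.021 to 0.40 for *Kmt2c*, and *Twist1* from -0.073 to 0.59 for *Kmt2d*. Calls were gained without a library for *Esrp1* (without WT replicate 3, -1.19) and *Snai1* (without *Kmt2d* KO replicate 1, 0.62) in 67NR *Kmt2d* KO cells. In 168FARN, *Ovol1*, *Esrp1* and *Esrp2* were too low to test at these depths.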
